A study of Mus musculus with 4 samples.

Results

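The 2-cell-like state is a rare, transient condition of mouse embryonic stem cells (mESCs), in which a few cells of a culture transcribe genes of the mouse embryo at the 2-cell stage. The double homeodomain factor DUX, encoded in a repeat array on chromosome 10, is its best known driver. DPPA2 and DPPA4 act upstream of Dux as chromatin-binding partners, SMCHD1 silences Dux, and a set of genes that respond to DUX, among them Zfp352, Tmem92, Sp110, Arg2 and Lmx1a, serves as markers of the state. These genes outside the large 2-cell gene families were looked up by symbol in the deposited table, together with Dux or Duxf3. The table held 9 of them among 55401 genes, namely 3 activators (Dppa2, Dppa4 and Duxf3), 1 repressor (Smchd1) and 5 markers, and no row had the symbol Dux. Of the 9 genes, 8 passed the filter on low counts and were tested among 15580 genes, and Duxf3 did not pass.

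RNA was sequenced from E14 cells, a mouse embryonic stem cell line, in 2 groups of 2 libraries, one of WT cells and one of Haspin knockout (Haspin-KO) cells. Haspin is the kinase that phosphorylates histone H3 at threonine 3 in mitosis, and the comparison asked which transcripts differ when it is lost. All cells were grown with serum, LIF and 2i without further treatment, and the study's methods passage mESCs on mitomycin-treated mouse fibroblasts and use gelatin for assays, without saying which applied to these libraries. The Haspin-KO lines were clones picked after CRISPR/Cas9 with a pair of guides, and the labels do not say which line each library came from or that the libraries were separate cultures, so that the tests measure the spread between these libraries only.

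The count tables summed to between 14207828 and 21834847 reads per library. A level of 3 counts, taken as the floor, corresponded to 0.137 to 0.210 CPM (counts scaled to TMM-adjusted library totals), and covers counting error only. Haspin fell, with 875 and 619 counts in WT against 149 and 209 in Haspin-KO. All 8 mESC markers were detected and 0 of them were called by edgeR, with 2 of 8 at an unadjusted p under 0.05. Such a p was common over all genes tested. By p, Smchd1 held rank 2317 of 15580 genes at an unadjusted edgeR p of 0.0277. Of 12 markers of feeder fibroblasts, 9 were tested and 6 were called lower in Haspin-KO (Col1a1, Col1a2, Col3a1, Col5a2, Postn and Acta2). Over all 15580 genes tested, 78 were called lower. Col1a2, Col3a1 and Postn passed the filter on low counts only through their WT counts, so their calls are descriptions only. Summed, all 12 reached 1735 and 1815 CPM in the WT libraries and 1647 and 1638 CPM in the Haspin-KO libraries. Most of this sum was Fn1, whose level did not separate the groups. Without Fn1, the other 11 together reached 200.2 and 149.1 CPM in the WT libraries but 19.1 and 19.4 CPM in the Haspin-KO libraries. The part of these fibroblast transcripts in the values of the genes below was not tested. In bulk RNA, a change in the share of 2-cell-like cells and a change in transcript level per cell cannot be told apart.

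RefSeq promoter windows (assembly GRCm38.p6, 250 bases before and 50 after the first transcribed base) were available for 5 of the 9 genes, in 6 windows, since Sp110 had 2. The bases before the start are printed for Zfp352 and for the upstream start of Sp110, the markers with the largest fold changes in Haspin-KO, because both hold repeated copies of the same short core. Capitals mark TAATC and, on the other strand, GATTA, the core bound by homeodomain proteins of the OTX and CRX type. For Duxf3, 41 bases are shown around a match to GATTNAATC, the palindromic core of the DNA sequence that DUX binds, in capitals.
Zfp352, chr4:90218570-90218819, plus strand: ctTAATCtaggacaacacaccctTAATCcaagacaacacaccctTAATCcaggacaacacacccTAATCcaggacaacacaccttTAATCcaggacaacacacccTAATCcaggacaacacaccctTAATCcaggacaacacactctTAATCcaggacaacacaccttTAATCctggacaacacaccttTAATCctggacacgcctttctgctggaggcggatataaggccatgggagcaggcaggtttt
Sp110, chr1:85603892-85604141, minus strand: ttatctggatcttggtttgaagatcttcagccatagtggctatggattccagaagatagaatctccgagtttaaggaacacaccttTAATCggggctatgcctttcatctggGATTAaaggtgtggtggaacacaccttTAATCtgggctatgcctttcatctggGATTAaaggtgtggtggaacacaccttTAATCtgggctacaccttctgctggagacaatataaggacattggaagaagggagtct
Duxf3, chr10:58233204-58233244, minus strand: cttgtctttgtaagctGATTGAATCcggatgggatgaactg

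The Zfp352 window held 10 copies of TAATC or its reverse complement, the most of all 32851 windows, in a tandem repeat that ends close to the start of transcription. The upstream Sp110 window held 5 copies, on both strands. At least 1 copy occurred in 22% of all windows and at least 5 copies in 7 windows (0.0213%), of which Zfp352 and Sp110 were the only ones whose genes, matched by symbol, were tested for expression. This core was chosen after the sequences were seen. The longest run the Zfp352 and Sp110 stretches shared was 15 bases, aacacaccttTAATC with the core in capitals. Each stretch held repeated copies of this run. The copies nearest the start began 71 bases before the start of Zfp352 and 68 bases before that of Sp110. On the printed strand, 21 windows (0.064%) held the run.

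The upstream Sp110 start lies beyond the end of the Sp110 row of the deposited table (chr1:85576899-85598817). In the GENCODE annotation of GRCm38, its printed bases fall in an intron of Sp140 on the opposite strand. Of these bases, 57 fall in an exon of Gm10552, which lies on the same strand as Sp110. Gm10552 had 0 counts in every library, and Sp140, a relative of Sp110, had 5, 1, 4 and 3 counts. The other Sp110 window, at the start that the table's row uses, held 1 copy of the core, and the windows of Duxf3, Lmx1a and Smchd1 held 0. The GATTNAATC match of Duxf3 is of a kind found in 88 windows (0.268%), and the windows of Zfp352 and Sp110 held 0 matches to it. The first transcribed base of that Duxf3 window (58233089) also lies beyond the end of the Duxf3 row (chr10:58229979-58232675). The Smchd1 window differed from the others in base composition, with a GC content of 74.0% and 40 CG dinucleotides. These matches describe letters in the windows and were not tested against binding of any factor.

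**Figure D1:**
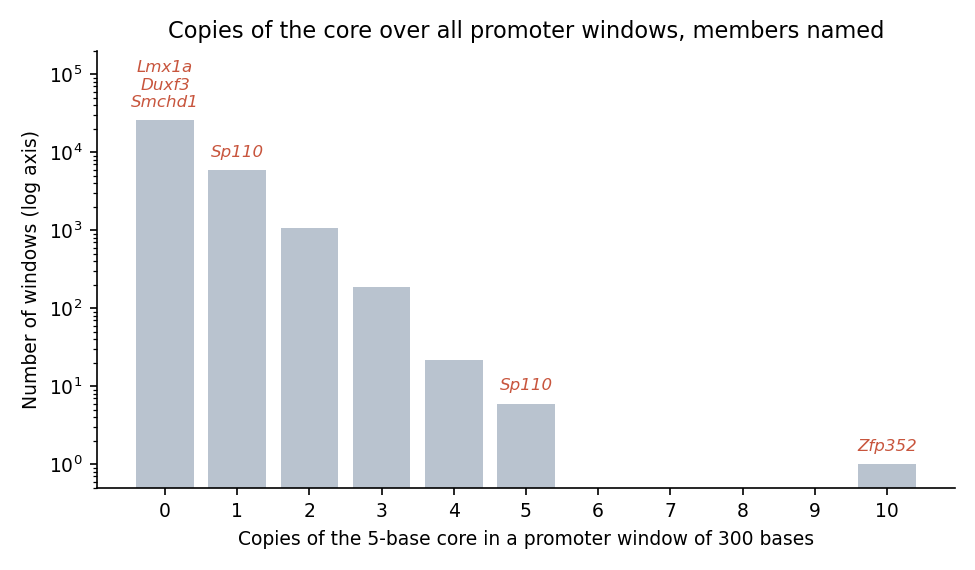
Number of RefSeq promoter windows (log axis) by copies of the 5-base core on either strand, over 32851 windows of 300 bases. Names above the bars give the windows of the genes described here, with Zfp352 alone at 10 copies and the upstream window of Sp110 among 6 windows at 5 copies.

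Reads of a gene can only be told from those of its copies where its transcripts are unique, so the single-copy label was checked against the GENCODE transcripts. For each gene, every stretch of 50 bases in its transcripts was looked up in the transcripts of all other genes, on both strands. Lmx1a, Smchd1, Tmem92 and Zfp352 were largely unique, with 0.0598%, 0.4%, 1.93% and 7.09% of their stretches shared. The others were not. Sp110 shared 42.3% of its stretches, most of them with Gm16026 on the same chromosome (26.7%), and Dppa2 and Dppa4 shared 29.1% and 31.3%, mainly with Gm9788 on chromosome 19 and Gm14058 on chromosome 2. Duxf3 shared 47.0%, of which AW822073 on chromosome 10 held most (32.5% of all Duxf3 stretches). For Arg2 (21.2%), the shared stretches were mainly those of Vti1b, which overlaps the end of Arg2 on the opposite strand. Whether the counter used strand, or dropped reads with several matches, is not stated, so the values of Sp110, Dppa2, Dppa4, Duxf3 and Arg2 are uncertain to that extent.

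**Figure D2:**
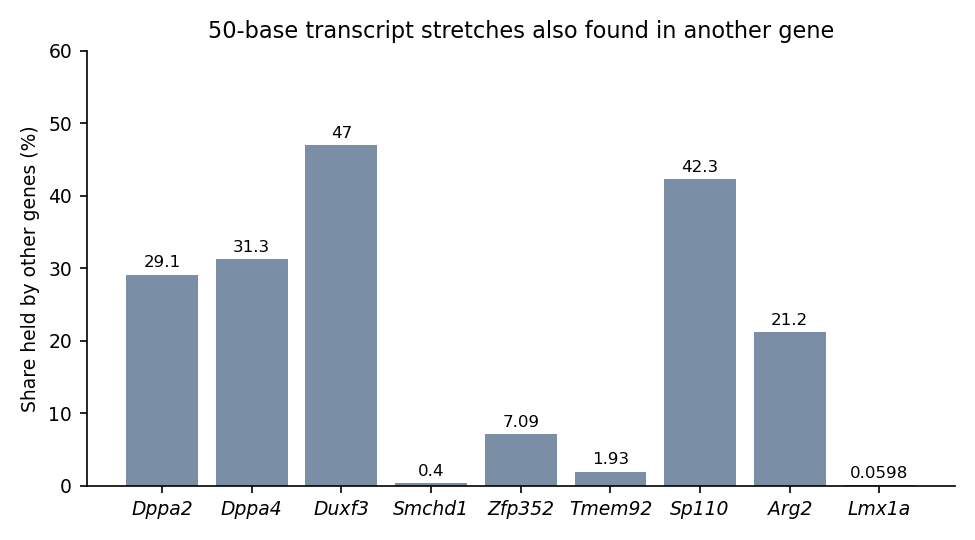
Share (%) of the 50-base stretches of each gene's transcripts that also occur in transcripts of another gene of the GENCODE annotation. Duxf3 and Sp110 have the highest shares (47.0% and 42.3%), and Lmx1a, Smchd1 and Tmem92 lie under 2%.

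In CPM, Dppa2, Dppa4 and Smchd1 lay far above all markers. Per length, as FPKM (the authors' counts divided by exonic length and library total), the order in WT was Dppa4 (47.15 to 54.44), Dppa2 (39.99 to 41.03), Smchd1 (6.0 to 6.82), Tmem92 (1.62 to 2.05), Arg2 (1.00 to 1.25), Zfp352 (0.28 to 0.40), Lmx1a (0.15 to 0.22), Duxf3 (0.04 to 0.05) and Sp110 (0.01 to 0.03). In this order no neighbours overlapped in WT, although the lowest levels rest on a few counts. In Haspin-KO the order at the top was reversed, with Dppa2 at 52.79 to 57.38 and Dppa4 at 42.94 to 53.39, whose ranges overlapped. The range of Arg2 (0.78 to 2.27) included that of Zfp352 (0.80 to 0.82) and lay below that of Tmem92 (2.38 to 2.57), and Lmx1a (0.14 to 0.64) overlapped Sp110 (0.13 to 0.16). Smchd1 kept the third place, at 7.49 in both Haspin-KO libraries.

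**Figure D3:**
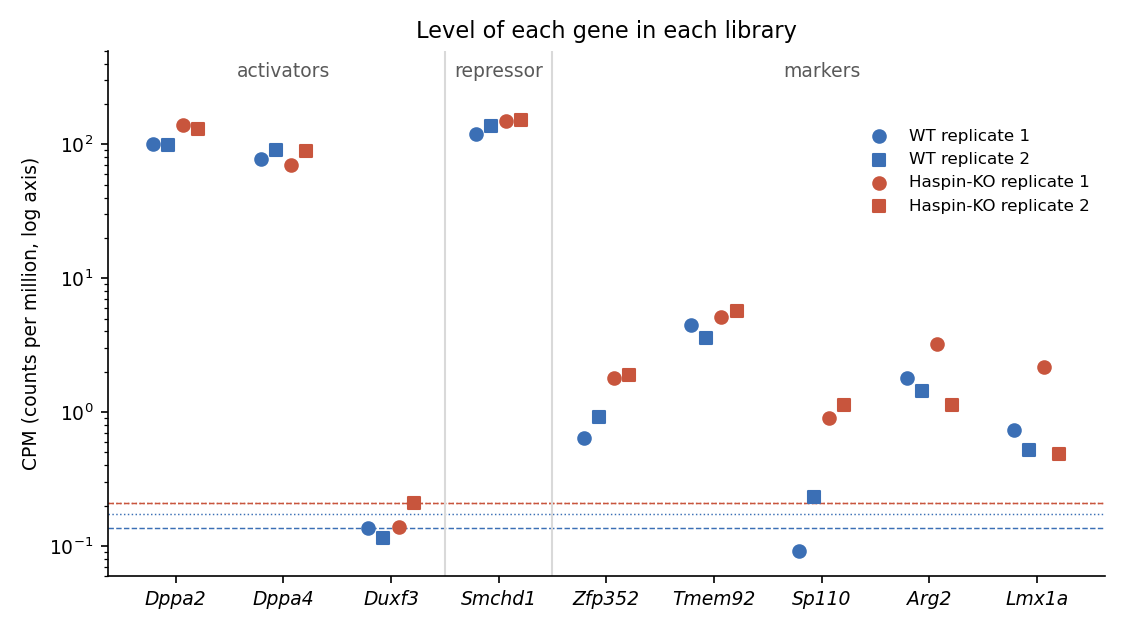
CPM (log axis) of the 9 genes in each library, with WT in blue and Haspin-KO in red. Dashed and dotted lines give the level of 3 counts in each library. Duxf3 is at or under that level in all 4 libraries, and Arg2 and Lmx1a are high in Haspin-KO replicate 1 only.

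Genes with an adjusted p under 0.05 (edgeR's quasi-likelihood test, Benjamini-Hochberg over 15580 genes) and a fold change over 2 were called, which held for 129 genes (0.828%) and for 0 of the 8 genes tested here. DESeq2 called 0 of the 5 to which it gave an adjusted p, which leave out Zfp352, Sp110 and Lmx1a, and limma, which called 0 genes in all, held 6 of the 8. At an unadjusted p under 0.05 with a fold change over 2, edgeR gave 2 of the 8 (Zfp352 and Sp110), against 451 genes (2.89%) of all tested. By the adjusted p alone, 154 genes (0.988%) were higher in Haspin-KO, and Dppa2 was the 1 gene of the 8 among them. Both Haspin-KO libraries were above both WT libraries for 5 of the 8 (Dppa2, Smchd1, Zfp352, Tmem92 and Sp110), against 3945 genes (25.3%) of all tested. Sp110 is among the 8 because its Haspin-KO counts passed the filter, so these counts are descriptions.

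Dppa2 (ENSMUSG00000072419, chr16:48303908-48319723) was the activator that rose. It had 2192 and 1708 counts in WT and 1995 and 1865 in Haspin-KO, which is 100.3 and 98.5 CPM against 138.9 and 130.6 CPM. Both Haspin-KO libraries were above both WT libraries, and the libraries of each group lay close together. Its log2 fold change was 0.44 (standard error 0.077, 95% interval 0.27 to 0.61, edgeR adjusted p = 0.0221), a rise of 1.36-fold. The log2 fold change stayed between 0.40 and 0.48 with each library left out. Its adjusted p ranged from 0.00178 to 0.12 over the 11 alternatives without a replicate term, and was 0.12 in limma, 0.101 without WT replicate 1 and 0.109 without WT replicate 2. The copies that share stretches with Dppa2 had few reads, with 80, 84, 90 and 98 counts for Gm9788 (WT replicates 1 and 2, then Haspin-KO replicates 1 and 2) and 32, 23, 22 and 27 for Gm8023.

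Dppa4 (ENSMUSG00000058550, chr16:48283733-48294237), the partner with which DPPA2 forms a heterodimer, is the neighbour of Dppa2 on the same strand, 9670 bases upstream. It had 1711 and 1579 counts in WT and 1014 and 1281 in Haspin-KO, or 78.3 and 91.1 CPM against 70.6 and 89.7 CPM. The groups overlapped. Its log2 fold change was -0.08 (standard error 0.12, 95% interval -0.35 to 0.20, edgeR adjusted p = 0.76), so a change of the size seen for Dppa2 lay outside the interval. The sign turned without WT replicate 2 (0.035) and without Haspin-KO replicate 1 (0.086). The ratio of Dppa2 to Dppa4 in FPKM was 0.87 and 0.73 in WT and 1.34 and 0.99 in Haspin-KO, higher in both Haspin-KO libraries than in both WT libraries, with no test of the ratio itself.

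Duxf3 (ENSMUSG00000075046, chr10:58229979-58232675), the double homeobox gene of the array, had 3 and 2 counts in WT and 2 and 3 in Haspin-KO. No library exceeded 3 counts, so that no fold change is given and a difference was not detectable at this depth. AW822073, the gene with the most stretches in common with Duxf3, had 5 and 10 counts in WT and 6 and 11 in Haspin-KO and did not pass the filter. The other 3 genes that share Duxf3 stretches (Gm10807, Gm4981 and Gm19459) had between 0 and 3 counts.

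Smchd1 (ENSMUSG00000024054, chr17:71344489-71475343) encodes a noncanonical SMC protein that keeps Dux and the inactive X chromosome silent. It had 119.7 and 137.3 CPM in WT and 148.1 and 151.4 CPM in Haspin-KO (2616, 2380, 2127 and 2162 counts). Both Haspin-KO libraries were above both WT libraries, yet the gap between WT replicate 2 and Haspin-KO replicate 1 was smaller than that between the WT libraries. The log2 fold change was 0.22 (standard error 0.085, 95% interval 0.03 to 0.41, edgeR adjusted p = 0.19). It ranged from 0.12 without WT replicate 1 to 0.32 without WT replicate 2. The annotation places 4 shorter gene models within or across Smchd1, and the largest of them by counts, Gm38220 on the same strand, had 15 to 20 counts per library.

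Zfp352 (ENSMUSG00000070902, chr4:90218820-90225702) encodes a zinc finger protein of the early embryo. It had 14 and 16 counts in WT and 26 and 27 in Haspin-KO, although the Haspin-KO libraries were sequenced less deeply, which is 0.641 and 0.923 CPM against 1.81 and 1.89 CPM. The Haspin-KO libraries lay next to each other and well above both WT libraries. For Zfp352 the log2 fold change was 1.25 (standard error 0.37, 95% interval 0.41 to 2.09, edgeR adjusted p = 0.106), so that this 2.39-fold difference did not pass the test. From the summed counts, 53 in Haspin-KO against 30 in WT, the ratio of levels was 2.42, with an exact 95% counting interval of 1.52 to 3.92. The related pseudogene Zfp353-ps, which shares 6.29% of the Zfp352 stretches, had 4 and 0 counts in WT and 7 and 4 in Haspin-KO.

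Sp110 (ENSMUSG00000070034), which encodes a nuclear body protein of innate immunity, had the largest fold change of the genes described here and the fewest reads of those tested. It had 2 and 4 counts in WT and 13 and 16 in Haspin-KO, or 0.0915 and 0.231 CPM against 0.905 and 1.12 CPM. WT replicate 1 was under the floor of 3 counts, and both Haspin-KO libraries were above both WT libraries. This gave a log2 fold change of 2.66 (standard error 0.59, 95% interval 1.34 to 3.98, edgeR adjusted p = 0.0505). This test carries a limit, since the gene passed the filter on low counts only through the group where it is high. The ratio of the summed counts, scaled to the totals, was 6.61 with an exact 95% counting interval of 2.70 to 19.5. Its adjusted p ranged from 0.00816 to 0.359 over the 8 alternatives without a replicate term that gave one, and lay on both sides of 0.05. DESeq2 set none for this gene, and the limma and 10-count filters removed it. Of these 8, it was under 0.05 with DESeq2's size factors (0.0488), without the filter (0.00816) and without Haspin-KO replicate 1 (0.0379).

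The genes that share stretches with Sp110 had few reads as well. Gm16026 had 9 and 0 counts in WT and 5 and 2 in Haspin-KO, and Gm15753 on chromosome 5 had 13 and 3 against 7 and 2. A530040E14Rik on chromosome 1, which shares 1.4% of the Sp110 stretches, had 10 and 3 counts in WT and 15 and 14 in Haspin-KO. Its difference was 1.60 on the log2 scale (standard error 0.53, edgeR adjusted p = 0.13). A530040E14Rik too passed the filter on low counts only through its Haspin-KO counts, so its test carries the limit given for Sp110. Reads cannot be assigned among these copies from the table. As Sp110 is also induced by interferon, interferon-stimulated genes were set beside it. Of 10 such genes, 3 were tested and edgeR called 0, with Bst2 (log2 fold change -0.70, standard error 0.19, adjusted p = 0.080) as the 1 gene at an unadjusted p under 0.05, and 6 were at or under the floor in all 4 libraries.

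Tmem92 (ENSMUSG00000075610, chr11:94777217-94782703), a transmembrane protein gene, was the marker with the highest level in CPM. It had 98 and 62 counts in WT and 74 and 81 in Haspin-KO, which is 4.49 and 3.58 CPM against 5.15 and 5.67 CPM. The groups did not overlap, but the libraries within WT differed by more than the gap between the groups. The log2 fold change was 0.42 (standard error 0.22, 95% interval -0.08 to 0.92, edgeR adjusted p = 0.32). The gene model Gm11543 on the same chromosome, which shares 0.583% of the Tmem92 stretches, had 63 and 35 counts in WT and 64 and 63 in Haspin-KO.

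Arg2 (ENSMUSG00000021125, chr12:79130777-79156301), the mitochondrial arginase, did not separate the groups. It had 39 and 25 counts in WT and 46 and 16 in Haspin-KO, or 1.79 and 1.44 CPM against 3.20 and 1.12 CPM. Haspin-KO replicate 1 was the highest library and Haspin-KO replicate 2 the lowest. The log2 fold change of 0.41 (standard error 0.45, 95% interval -0.60 to 1.43, edgeR adjusted p = 0.64) became -0.53 without Haspin-KO replicate 1. Vti1b, which overlaps 285 bases of Arg2, had 565 to 999 counts per library.

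Lmx1a (ENSMUSG00000026686, chr1:167689237-167848741), a LIM homeodomain factor better known from midbrain dopaminergic neurons, showed the same pattern over the libraries. Its counts were 16 and 9 in WT and 31 and 7 in Haspin-KO, or 0.732 and 0.519 CPM against 2.16 and 0.490 CPM. Haspin-KO replicate 1 was 4.40 times as high as Haspin-KO replicate 2, which was the lowest library. On the log2 scale the fold change was 1.06 (standard error 0.62, 95% interval -0.34 to 2.45, edgeR adjusted p = 0.36). It was -0.36 without Haspin-KO replicate 1 and 1.75 without Haspin-KO replicate 2, where the adjusted p was 0.0387, against a range of 0.0387 to 0.87 over the 8 alternatives without a replicate term that gave one. The value of Lmx1a was thus set by 1 library.

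**Figure D4:**
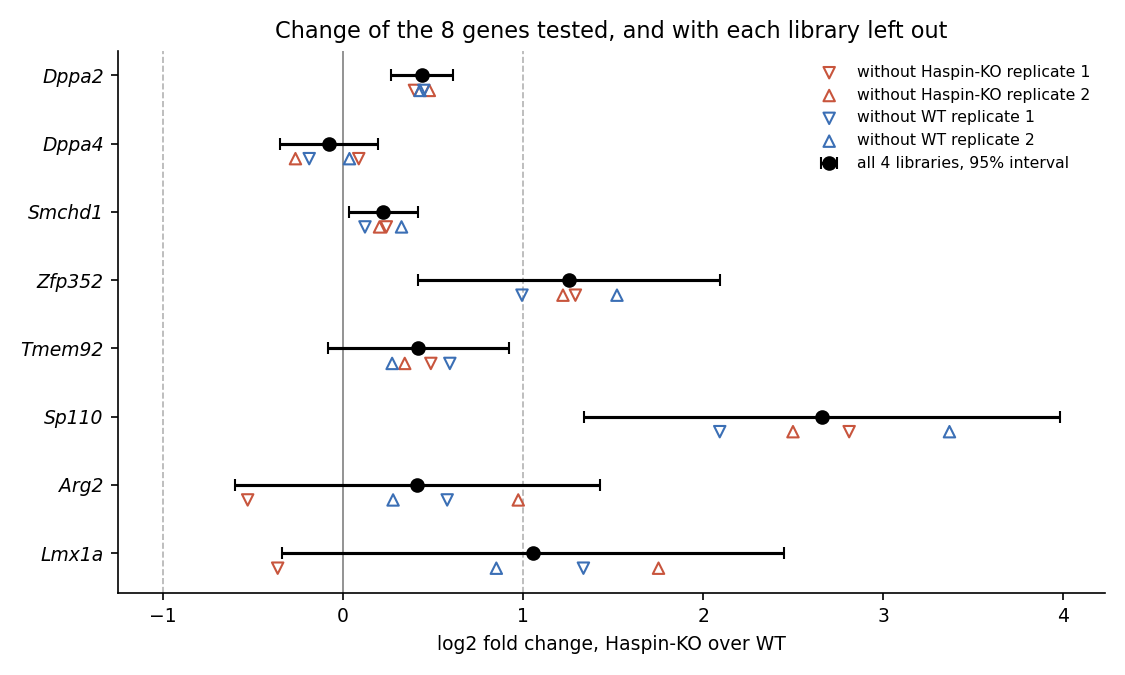
Log2 fold change of Haspin-KO over WT for the 8 genes tested, with the 95% interval of the fit to all 4 libraries (black) and the value without each library (open triangles). Dashed lines mark a fold change of 2 in either direction. Arg2 and Lmx1a fall below 0 without Haspin-KO replicate 1 (-0.53 and -0.36), while Zfp352 and Sp110 lie at 0.99 or above in every case.

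The spread between the Haspin-KO libraries divided the markers. Zfp352, Tmem92 and Sp110 differed little between Haspin-KO replicates 1 and 2, with ratios of CPM of 0.957, 0.908 and 0.808, whereas those of Arg2 and Lmx1a were 2.86 and 4.40. Added up, the 5 markers gave 7.74 and 6.69 CPM for WT replicates 1 and 2 against 13.2 and 10.3 CPM for Haspin-KO replicates 1 and 2. Leaving out Tmem92, which makes up most of the WT sum, the values were 3.25 and 3.11 CPM against 8.08 and 4.62 CPM. The median log2 fold change of the 5 markers was 1.06, beside -0.0039 over all genes tested, and is a description only, since Sp110 passed the filter through its Haspin-KO counts. This median is the value of Lmx1a, and it was 0.49 without Haspin-KO replicate 1. The 5 tested genes whose log2 CPM was most like this sum over the 4 libraries were Inpp4b, Ctnnd2, BC147527, Xist and Mapk9, each with a Pearson r that rounds to 1.00. With 4 libraries this likeness carries little information, since 801 genes had r over 0.95, and of the 5 named Xist alone had an edgeR adjusted p under 0.05 (0.0268, log2 fold change 1.05, standard error 0.19).

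Further genes that act on Dux were looked at as lists. Of 6 other activators, all were tested and edgeR called 0, with 0 at an unadjusted p under 0.05. Their log2 fold changes lay between -0.18 and 0.21, and Nelfa, a maternal elongation factor subunit that can drive the state, was at 0.16 (standard error 0.075, adjusted p = 0.25). Of 25 repressors edgeR also called 0, with 12 above and 13 below 0 and a median of -0.0032. Among them were Kdm1a, Trim28, Setdb1, Chaf1a and subunits of the noncanonical Polycomb complex PRC1.6. An unadjusted p under 0.05 held for 3 of the 25, and such a p was common over all genes tested, as given beside the mESC markers. The 3 were Rif1 (0.28, standard error 0.10, adjusted p = 0.18), which helps to silence Dux, and the Tip60 complex members Dmap1 (-0.34, standard error 0.11, adjusted p = 0.12) and Kat5 (-0.23, standard error 0.099, adjusted p = 0.22). Lrif1, a partner of SMCHD1, was at 0.40 (standard error 0.13, adjusted p = 0.12), with 21.7 and 26.7 CPM in WT against 30.8 and 32.8 CPM in Haspin-KO.

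Among relatives of the DPPA genes, Dppa5a stood at -0.21 on the log2 scale (standard error 0.066, edgeR adjusted p = 0.12) and Dppa3 at -0.20 (standard error 0.48, edgeR adjusted p = 0.85). Of 4 other 2-cell markers, listed as single-copy without a check of shared stretches, Ubtfl1 and Ddit4l were tested. Gm6763 and Duxbl1 had 0 counts in every library. Ddit4l had 392 and 279 counts in WT and 411 and 338 in Haspin-KO, or 17.9 and 16.1 CPM against 28.6 and 23.7 CPM, with a difference of 0.62 on the log2 scale (standard error 0.14, edgeR adjusted p = 0.0499). Ubtfl1 had 1.28 and 1.56 CPM in WT and 2.65 and 2.10 CPM in Haspin-KO, at 0.75 (standard error 0.32, edgeR adjusted p = 0.22). In both genes the Haspin-KO libraries were above the WT libraries, and neither passed the fold change of 2.

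The multicopy families of the 2-cell stage were set beside the single genes on the same fit, their copies being hard to tell apart by reads. Of the 6 Zscan4 genes edgeR called 5 higher, of 5 Usp17l genes 1 and of 9 Eif1a-like genes 4, with family medians of 1.17, 1.16 and 1.12. Over all 15580 genes tested, 51 were called higher. Tdpoz3 and Tdpoz4 were at 1.25 and 1.28 and were not called, and Tcstv3 was at 0.018 (standard error 0.46). Of these, Tdpoz4 passed the filter on low counts only through its Haspin-KO counts, so its value is a description only. The log2 fold change of Zfp352 (1.25) lay beside the medians of the Zscan4, Usp17l and Eif1a-like genes, but rested on 83 reads in all, whereas Zscan4d alone had 2004. Of markers of other lineages, 0 of 3 primitive endoderm, 0 of 4 trophoblast and 0 of 3 neural genes tested were called by edgeR, with 0, 0 and 1 (Nes, at 0.27) at an unadjusted p under 0.05.

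**Figure D5:**
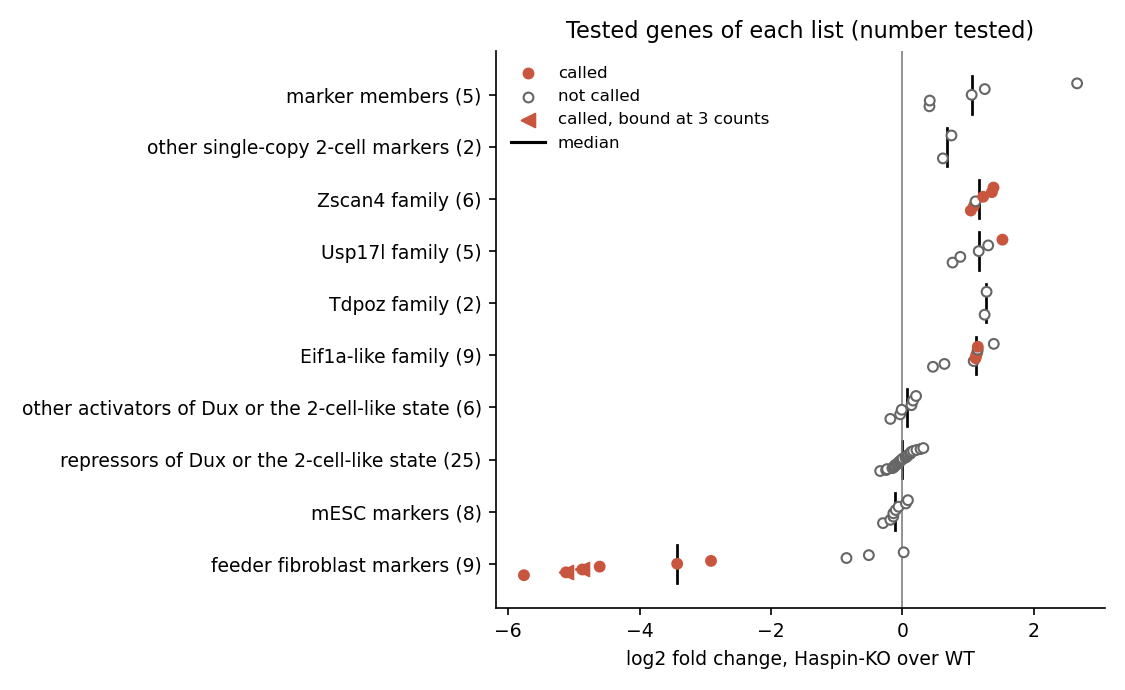
Log2 fold change of Haspin-KO over WT of the tested genes of each list (number tested in brackets), with called genes in red and the median of each list as a black bar. Triangles are genes with at most 3 counts in both Haspin-KO libraries (Col3a1 and Postn), drawn at their bound. Activators, repressors and mESC markers lie around 0, the medians of the 4 multicopy families drawn lie between 1.12 and 1.27, and 6 of 9 feeder fibroblast markers are called lower. The Tdpoz median rests on 2 genes, of which Tdpoz4 passed the filter only through its Haspin-KO counts. Col1a2, Col3a1 and Postn passed it only through their WT counts.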

How the data were processed

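Per the labels, 2 WT and 2 Haspin-KO libraries of E14 mESCs were sequenced and grouped by genotype. The submitters' processing notes list cutadapt (1.9.1), HISAT2 (2.0.1), HTSeq (0.6.1), DESeq2 and mm10. The strand setting, the handling of multiply mapped reads and the annotation release are not given in the sources used here. The authors deposited raw counts per gene, not normalized, and FPKM values, which equal counts divided by exonic length and library total within 0.01 in 100% of the values. Totals ranged from 14207828 to 21834847 counts. The 9 genes and all gene lists were chosen with earlier results of these data known.

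Counts were filtered and TMM-normalized in edgeR (4.0.16, R 4.3.3) and tested by its quasi-likelihood test across 15580 genes, with Benjamini-Hochberg adjustment over all of them. Standard errors were taken as the fold change (log2) over the root of the F statistic. The plan was to name all 9 genes, Haspin, and the 5 genes most like the summed markers. Of each list it took the called genes or else up to 4 with the smallest p. Not all of these list genes are named in the text. Kdm1a, Trim28, Setdb1 and Chaf1a were named outside that rule, as examples of the repressors. Other genes (Smchd1 models, copies and neighbours) were named after their values were seen. Intervals of summed counts were exact (Clopper-Pearson, 95%) and cover counting error only.

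Alternatives were DESeq2 (1.42.0), limma (3.58.1) on FPKM in log2 with a pseudocount of 0.1, keeping genes that reached 0.5 FPKM in 2 or more libraries, other scalings, filters and thresholds, random thinning to 14207828 counts, the replicate number as a block and leaving out each library. Tests were tried on simulated data. Promoter windows are RefSeq's (GRCm38.p6) and transcripts GENCODE's (vM21).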

Additional observations from a re-analysis of the deposited data

How the results depend on the processing

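With 2 libraries in each group and 2 residual degrees of freedom, the tests lean on the spread shared across genes, and leaving out a library assumes that the lone library varies like the rest. Of 92 alternative log2 fold changes of the 8 genes, 78 kept their direction and side of the threshold. This counts the DESeq2 values of Zfp352, Sp110 and Lmx1a, which had no adjusted p, as not past it. Of 28 alternative counts of called genes, 10 stayed within 1.5 times the main count and 18 did not. The 51 genes called higher became 0 with limma, 125 without the filter, 154 by the adjusted p alone and 266 by the unadjusted p with the fold, and ranged from 17 to 157 with a library left out. The 78 called lower became 45 with DESeq2, 0 with limma, 140 without the filter, 36 with at least 10 counts in every library, 236 by the adjusted p alone and 185 by the unadjusted p with the fold, and ranged from 37 to 150. For limma, 219 higher and 164 lower genes had an unadjusted p under 0.05 and a fold over 2.

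The replicate numbers are shared labels without stated pairing, and the differences between replicates correlated with r = 0.289 across genes, over 2 pairs. With the replicate block, 240 and 167 genes were called, and the log2 fold changes of Smchd1 (0.22), Zfp352 (1.25) and Sp110 (2.64) came under an adjusted p of 0.05. Of these, Zfp352 and Sp110 also passed the fold change of 2 and were thus called, and Smchd1 was not. The other 5 genes kept their side of that adjusted p. With 1 residual degree of freedom, the block fit leaned wholly on the spread shared across genes. Its calls of Zfp352 and Sp110 thus take in no spread of their own.

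The value of Dppa2 in limma was 0.44, not past the threshold. Sp110 passed with DESeq2's size factors (2.67) and without the filter (2.63). With each library left out, the log2 fold change ranged from 0.40 to 0.48 for Dppa2, from -0.27 to 0.086 for Dppa4 (positive at 0.035 without WT replicate 2 and 0.086 without Haspin-KO replicate 1), from 0.12 to 0.32 for Smchd1, from 0.99 to 1.52 for Zfp352, from 0.27 to 0.59 for Tmem92, from 2.09 to 3.37 for Sp110, from -0.53 to 0.97 for Arg2 and from -0.36 to 1.75 for Lmx1a. Arg2 (-0.53) and Lmx1a (-0.36) turned negative without Haspin-KO replicate 1. For all of these the cause was not tested. At these depths a gene with few reads, such as Sp110 or Duxf3, allows no finer statement.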
